A study of Homo sapiens with 2 samples.

Results

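The S100 proteins are a family of small calcium-binding proteins, and 10 of their genes are described here: S100A2, S100A4, S100A6, S100A10, S100A11, S100A13, S100A14, S100A16, S100P and S100B. They were taken by name, each from the probe sets whose platform annotation names that gene alone, and make up 10 of the 19775 genes measured. Huh7, an established human hepatocellular carcinoma line grown in DMEM with serum, was compared as 2 stably transduced cultures, 1 carrying a lentiviral short hairpin RNA (shRNA) against CD24 and 1 a hairpin with no target (non-target control). Each culture gave total RNA for 1 Affymetrix array. Both cultures thus carry a lentivirus and a hairpin, and the labels name no untransduced culture. With 1 array per group there is no replicate and no test across samples, and precision is limited by the number of arrays. The deposited numbers are log2 values after RMA (robust multi-array average), centred so that the 2 values of a probe set are equal and opposite. They give the difference between the arrays and not the level of a gene, so S100 genes cannot be ordered by abundance, and the labelled liver line could not be checked by the level of its markers. Every difference below is CD24 shRNA minus control on the log2 scale, and a gene's value is the mean over its probe sets. CD24, a small surface glycoprotein and the target of the hairpin, was lower on all 6 of its probe sets, with a mean of -1.37 ± 0.38 (SD, 6 probe sets). The names of all 6 end in _s_at or _x_at, suffixes for probe sets that can match more than 1 transcript, so CD24 has no value without them.

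S100 proteins bind calcium through a pair of EF-hand motifs and mostly work as dimers. Calcium opens a surface through which they hold target proteins such as annexins, cytoskeletal motors and linkers, and several are also released and bind cell surface receptors, among them the receptor RAGE (AGER). Most of the genes lie in a cluster on the long arm of chromosome 1, while S100P lies on chromosome 4 and S100B on chromosome 21. Several family members are used as markers of invasive or dedifferentiated tumour cells, and S100A4 is also known as a fibroblast-specific protein.

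The 10 genes did not move together. S100A4 and S100A14 were at least 2-fold lower in the CD24 shRNA array, none was 2-fold higher, S100A10, S100P, S100A11 and S100A6 were higher by 1.23-fold to 1.61-fold, and S100A2, S100B, S100A13 and S100A16 lay close to 0. Lower at 2-fold were thus 2 of 10, where 0.485% of all genes were; higher at 2-fold were 0 of 10, where 0.632% were, and 1.12% of genes passed in either direction. The genes were picked with earlier results of these arrays known, so the count describes them and does not set the family apart. The median over the 10 was 0.04, with 6 above 0 and 4 below, against a median of 0 over all genes, of which 9770 lay above and 9402 below. Scaled on the array's hybridisation controls, which adds 0.08 to every difference, 8 lay above 0 and 2 below, and S100A14 no longer reached 2-fold.

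**Figure D1:**
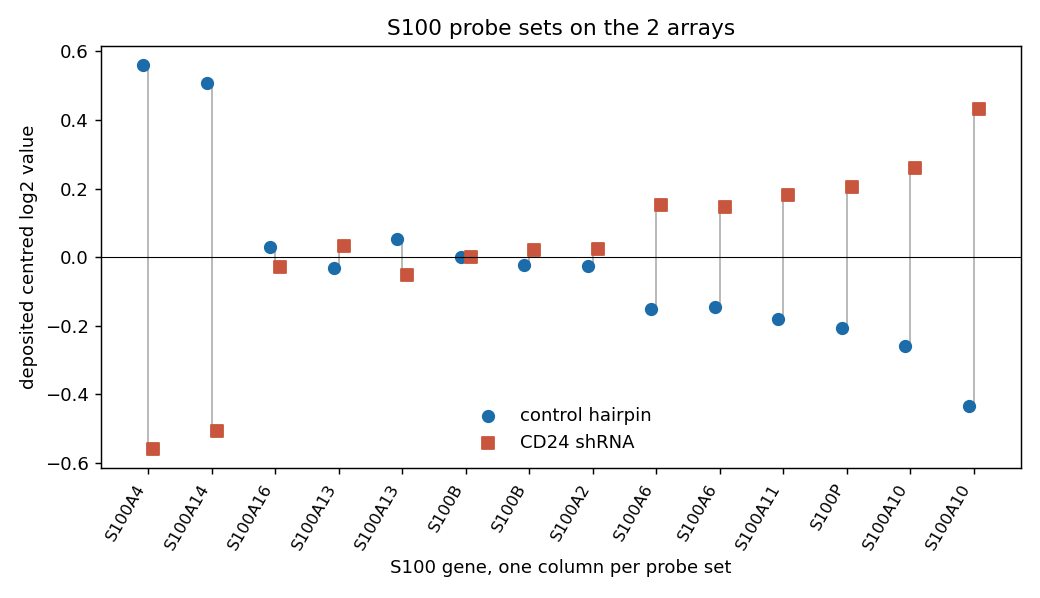
Deposited centred log2 value (vertical axis) of each of the 14 probe sets of the 10 S100 genes, 1 column per probe set, in the control array (circles) and the CD24 shRNA array (squares), joined by a line. Genes are ordered by their mean difference: S100A4 and S100A14 stand apart at the left, where the control array is the higher one, and S100A10 has the widest opposite gap, at 0.43 against -0.43 on its second probe set.

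S100A4, also called metastasin, binds the heavy chain of non-muscle myosin IIA and is a marker of motile cells. Its 1 probe set read 0.56 with the control hairpin and -0.56 with CD24 shRNA. That is a difference of -1.12, or 2.17-fold lower, and the 65th lowest value among 19775 genes. Among genes that also had 1 probe set, 0.984% were as far from 0 or farther. The name of this probe set also ends in _s_at, so S100A4 has no value without such probe sets. S100A14, an S100 protein of epithelial cells, read 0.51 with the control hairpin and -0.51 with CD24 shRNA, also on 1 probe set. Its difference of -1.01 was 2.02-fold, just past the 2-fold line, and the 90th lowest of all genes. S100A4 and S100A14 differed from each other by 0.10, less than the SD of 0.27 pooled over the probe sets of 10523 genes. The next gene in the order, S100A16, lay 0.96 above S100A14, which is 3.55 times that SD. That SD covers disagreement between probe sets of a gene on this pair of arrays, not the spread between cultures.

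The 250 bases before the RefSeq starts (GRCh38.p14) are shown for the pair of lower genes and for S100A10, the highest of the 10, since these carry the widest differences. Capitals mark TATA boxes (TATAAA), GC boxes (GGGCGG) and AP-1 motifs (TGANTCA), read on both strands. The windows are chr1:153545807-153546056, chr1:153616326-153616575 and chr1:151993860-151994109, all on the minus strand and written 5′ to 3′.
S100A4: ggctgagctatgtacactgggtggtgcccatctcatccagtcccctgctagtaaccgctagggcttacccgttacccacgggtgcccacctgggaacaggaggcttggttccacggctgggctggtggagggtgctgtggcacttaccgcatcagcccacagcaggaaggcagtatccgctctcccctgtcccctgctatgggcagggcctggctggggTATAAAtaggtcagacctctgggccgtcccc
S100A14: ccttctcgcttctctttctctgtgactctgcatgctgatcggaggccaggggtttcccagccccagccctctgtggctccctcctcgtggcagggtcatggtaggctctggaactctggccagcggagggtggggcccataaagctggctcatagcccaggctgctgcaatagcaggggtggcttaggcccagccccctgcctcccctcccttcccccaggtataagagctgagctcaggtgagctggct
S100A10: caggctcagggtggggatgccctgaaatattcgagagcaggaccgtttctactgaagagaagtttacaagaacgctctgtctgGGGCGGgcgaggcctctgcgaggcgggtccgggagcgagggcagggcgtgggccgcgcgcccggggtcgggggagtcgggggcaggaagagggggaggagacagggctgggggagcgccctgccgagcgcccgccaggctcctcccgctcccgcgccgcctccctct
The S100A4 window held a TATA box whose first base lies at -31 from the start, and the S100A10 window held a GC box at -167. None of these 3 motifs was found in the S100A14 window. Of 35116 RefSeq promoter windows of this length, 10.7% held the TATA box, 42.6% the GC box and 6.57% the AP-1 motif. RefSeq windows were found for 9 of the 10 genes, S100B being the exception. A GC box also lay in the windows of S100A11 and S100A6, which were higher, and in 1 window each of S100A16 and S100A13, which lay close to 0. A TATA box also lay in the windows of S100P, which was higher, and in 1 window of S100A13. No GC box was found in the windows of S100A4 and S100A14, nor in those of S100P, which was higher, and S100A2, which lay close to 0. The AP-1 motif was found in 1 window of S100A2 and in no other window of the 10. A match is a description of the letters and not of a factor bound there.

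S100A10, or p11, has lost calcium binding and sits in a tetramer with annexin A2 at the cell membrane, where it is known to hold plasminogen. Its probe sets read -0.26 and -0.43 with the control hairpin, against 0.26 and 0.43 with CD24 shRNA. Both were higher with CD24 shRNA, by 0.52 and 0.87, for a mean of 0.69 ± 0.25 (SD, 2 probe sets), or 1.61-fold. It was the 359th highest gene, and the only one of the 10 past 1.5-fold on the higher side, where 2.63% of all genes were. S100P, a protein first found in placenta that binds ezrin, read -0.21 and 0.21 on its 1 probe set, 1.33-fold higher. S100A11, which binds annexin A1, read -0.18 and 0.18, 1.28-fold higher on 1 probe set. S100A11 has pseudogenes in the RefSeq gene table, and whether its probe set also reads them was not tested. S100A6, or calcyclin, gave the closest agreement between probe sets, with differences of 0.30 and 0.29 (mean 0.30 ± 0.01, SD, 2 probe sets), or 1.23-fold. The second difference, 0.291774, also came up for genes outside the S100 family. Whether the 2 probe sets are separate readings of S100A6 was not tested, and their closeness may be a coincidence. S100A10, S100P, S100A11 and S100A6 lay between 0.30 and 0.69, each farther from 0 than the pooled SD of 0.27. S100A11 lay 0.06 above S100A6 and S100P 0.05 above S100A11, less than that SD, and S100A10 lay 0.28 above S100P, 1.04 times the SD.

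The other four genes lay within the pooled SD of 0. S100A2, a mostly nuclear S100 protein of epithelial cells, had a difference of 0.05 on 1 probe set, reading -0.02 with the control hairpin and 0.02 with CD24 shRNA. S100B, the S100 protein of glial cells, was tied between the arrays on 1 probe set and 0.04 higher on the other. S100A13, which takes part in the release of FGF1 and interleukin 1 alpha without a signal peptide, had probe sets of opposite sign at 0.06 and -0.11 (mean -0.02 ± 0.12, SD, 2 probe sets). S100A16, a widely expressed member, was at -0.06 on 1 probe set, and with the hybridisation control scaling the values of S100A13 and S100A16 turned above 0. These differences were smaller than the pooled disagreement between probe sets of a gene, which does not show that the levels were equal. The digits of the deposited numbers place the dimmer array below a log2 level of 8 for 4 of the 14 probe sets, those of S100A14 and 1 each of S100A10, S100A6 and S100A13. None of the 14 was placed below 4, near the background, although this reading reveals only part of the dim probe sets. The tied S100B probe set reads 0 on both arrays, so it could not be placed by its digits. Of all 54675 probe sets, 31217 were placed below 8 and 15522 below 4.

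**Figure D2:**
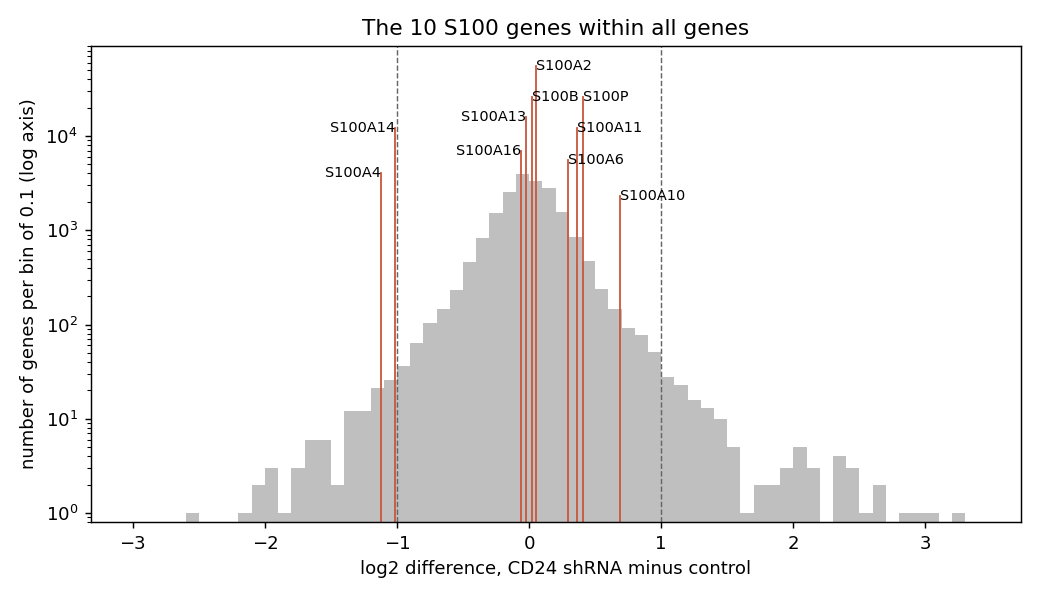
Number of genes per bin of 0.1 (vertical log axis) by log2 difference, CD24 shRNA minus control, for all 19775 genes, with a line for each of the 10 S100 genes and dashed lines at 2-fold. S100A4 and S100A14 lie in the lower tail, past -1, S100A10 lies at 0.69, and the other genes lie between -0.06 and 0.41.

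The pair of lower genes did not lie side by side in the chromosome 1 cluster. The S100 genes from S100A9 to S100A7 lie directly before S100A6. From S100A6 to S100A1, 9 protein-coding genes lie side by side, all of them S100 genes. In that run S100A6 (0.30) and S100A5 (0.21) came first, then S100A4 at -1.12, then S100A3 (0.13), S100A2 (0.05) and S100A16 (-0.06), then S100A14 at -1.01, and last S100A13 (-0.02) and S100A1 (0.03). The S100A5 difference, 0.210693, also came up for genes outside the S100 family, and whether it is a reading of S100A5 was not tested. S100A4 and S100A14 were separated by 3 genes with differences of at most 0.13 in size. S100A10 and S100A11 lie next to each other at the other end of the cluster, at 0.69 and 0.36. Of 55 measured protein-coding genes within 10 places of one of the 10 genes that are no S100 genes, 29 lay above 0 and 24 below (median 0.03). None passed 2-fold, where 1.12% of all genes did in either direction, so with 55 genes this does not set the neighbours apart. The widest of these was MRFAP1L1, near S100P, at -0.79 (1 probe set), and KIAA0232, also near S100P, lay at 0.56 ± 0.01 (SD, 2 probe sets). LSS, the cholesterol synthesis enzyme lanosterol synthase, which lies near S100B, was at -0.50 ± 0.20 (SD, 3 probe sets), and SORCS2 at -0.47 (1 probe set).

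**Figure D3:**
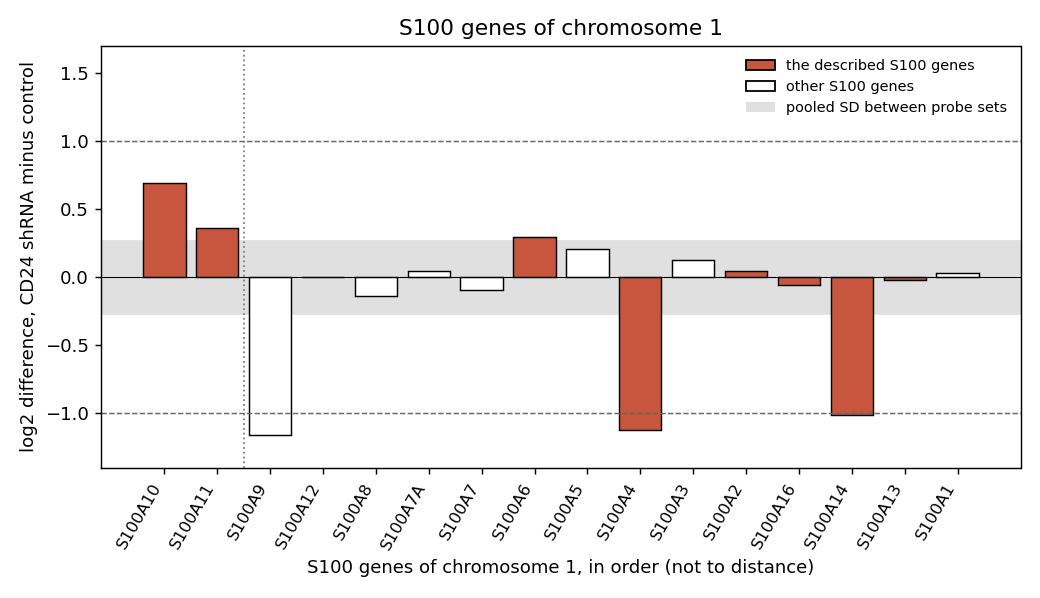
Log2 difference, CD24 shRNA minus control (vertical axis), of the 16 S100 genes of chromosome 1 in their order on the chromosome, with the genes described here filled and the others open. The grey band is the SD of 0.27 pooled over probe sets, the dashed lines mark 2-fold, and the dotted line marks the stretch of other genes between S100A11 and S100A9; the 3 lowest bars, S100A9, S100A4 and S100A14, are not neighbours.

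Of the other S100 family genes, 10 of 11 were measured, 5 above 0, 3 below and 2 tied between the arrays (median 0.02). S100A9, a calprotectin chain abundant in neutrophils and monocytes, was 2.23-fold lower, reading 0.58 with the control hairpin and -0.58 with CD24 shRNA on 1 probe set, the 55th lowest of all genes. It was the 1 gene of this group past 2-fold. S100A8, the other calprotectin chain, was tied on 1 probe set and at -0.28 on the other, whose dimmer array was near the background. The remaining 8 lay between -0.09 and 0.21, the latter being the repeated value of S100A5. Over all 20 measured S100 genes, 3 were at least 2-fold lower, against 0.485% of all genes, and none 2-fold higher, against 0.632%. The S100 fused-type genes, which join an S100 domain to long repeats in skin proteins such as filaggrin, lay between -0.05 and 0.34 (5 of 7 measured). FLG, FLG2, TCHH and RPTN had 1 probe set each, all near the background.

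Markers of other cell types were set beside these values. LYZ, the lysozyme of myeloid cells, was 3.21-fold lower (-1.68 ± 0.15, SD, 2 probe sets), and 4 of 5 measured myeloid markers lay below 0, with CD14 at -0.37, CSF1R at -0.18 and PTPRC, the common leukocyte antigen, at 0.17 ± 0.32 (SD, 5 probe sets, 3 near the background). Of 7 fibroblast and stellate cell markers, 5 lay above 0 while S100A4 was lower. COL3A1, a fibrillar collagen gene, was 5.09-fold higher (2.35 ± 1.77, SD, with 4 of 5 probe sets near the background) and LUM, lumican, 2.18-fold (1.12 ± 1.41, SD, both of 2 probe sets near the background). COL1A2 was at 0.28 ± 0.20 (SD, 3 probe sets) and THY1 at -0.18 ± 0.32 (SD, 3 probe sets). Keratinocyte markers ranged from -0.23 to 0.22 (4 measured) and glial markers from -0.19 to 0.11 (3 measured). Of the keratinocyte markers, KRT14, IVL and LORICRIN had 1 probe set each, all near the background. Of the glial markers, 1 of 3 probe sets of GFAP, 1 of 2 of SOX10 and 3 of 9 of MBP were near the background. Hepatocyte markers ranged from -0.29 to 0.59, with 4 of 7 below 0. In RNA from whole cultures, fewer cells of a type and less RNA per cell cannot be told apart, and the part of these markers in the S100 values was not tested.

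Of the genes of proteins that S100 members hold inside the cell, 15 of 21 measured lay above 0 and 6 below. Their median was 0.16 against 0 for all genes. The pooled SD of 0.27 is a spread between single probe sets of a gene and does not measure that of a median. Whether the partners lie apart from other genes was not tested. ANXA1, a partner of S100A11 that binds membrane phospholipids, averaged 4.44-fold higher on probe sets that lay far apart, at 3.32 and 0.98 (mean 2.15 ± 1.66, SD, 2 probe sets). MYH9, the non-muscle myosin IIA heavy chain that S100A4 binds, was 1.81-fold higher (0.85, 1 probe set), opposite to S100A4. The MYH9 probe set is named _s_at too, so neither MYH9 nor S100A4 has a value without such probe sets. ANXA1 and MYH9 were the 2 of 21 partners at least 1.5-fold higher, where 2.63% of all genes were. EZR, the membrane linker ezrin, which S100P binds, was at 0.30 ± 0.27 (SD, 5 probe sets, 1 near the background). STK38, a kinase bound by S100B, was at 0.35 ± 0.13 (SD, 5 probe sets, 2 near the background). ANXA2, the partner of S100A10, had 3 probe sets between 0.35 and 0.43 and 1 at -0.50 whose dimmer array was near the background (mean 0.17 ± 0.45, SD, 4 probe sets). The 3 higher ANXA2 probe sets have names ending in _x_at, so without such probe sets ANXA2 lay at -0.50. The direction of ANXA2 therefore turned with the choice of probe sets, whereas both S100A10 probe sets lay above 0.

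Genes of the plasminogen system, in which S100A10 takes part, lay on both sides, 3 of 8 measured above 0 and 5 below (median -0.15). PLG, plasminogen, which hepatocytes secrete, was 2.24-fold lower (-1.17 ± 0.22, SD, 3 probe sets), while S100A10 was higher. For 1 of these PLG readings the dimmer array was placed below a log2 level of 4, and with that reading left out PLG lay at -1.08. CTSB, the protease cathepsin B, was 1.89-fold lower (-0.92 ± 0.52, SD, 5 probe sets). PLG and CTSB were the 2 of 8 at least 1.5-fold lower, where 2.38% of all genes were. PLAU, the plasminogen activator urokinase, was at 0.42 ± 0.03 (SD, 2 probe sets, 1 near the background) and its receptor PLAUR at -0.24 ± 0.27 (SD, 3 probe sets). Genes of the export route of S100A13 had a median of 0.06 (5 genes): SYT1, the calcium sensor synaptotagmin 1, was at -0.65 ± 0.16 and IL1A, interleukin 1 alpha, at 0.43 ± 0.14 (SD, 2 probe sets each), the latter near the background on both. SPHK1, sphingosine kinase 1, was at -0.21 (1 probe set).

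A list of receptors for released S100 proteins and other surface candidates had a median of 0.10, with 6 of 10 above 0. AGER, the receptor RAGE, was at -0.20 ± 0.21 (SD, 2 probe sets, 1 near the background), within the pooled SD of 0. IL10RA, a chain of the interleukin 10 receptor, was at 0.68 on 1 probe set near the background. MCAM, a surface adhesion protein, was at 0.30 ± 0.36 (SD, 2 probe sets) and EGFR at 0.13 ± 0.23 (SD, 9 probe sets, 2 near the background). A list of adaptors, coreceptors, NF-kB genes and other signalling partners of RAGE and TLR4 had a median of -0.20, with 7 of 10 below 0. None was past 1.5-fold, where 2.63% of all genes were higher and 2.38% lower. RELA, a subunit of NF-kB, was at -0.46 ± 0.35 (SD, 2 probe sets) and the coreceptor CD14 at -0.37 (1 probe set). TIRAP was at -0.33 ± 0.14 (SD, 4 probe sets, 2 near the background) and MYD88 at 0.33 (1 probe set).

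Other EF-hand proteins did not lie to one side: of 30 measured, 17 were above 0 and 13 below, with a median of 0.02. CAPN2, the catalytic chain of m-calpain, was 2.23-fold higher on average, on probe sets at 2.35 and -0.04 that did not agree (1.16 ± 1.69, SD, 2 probe sets). NUCB2, the calcium-binding nucleobindin 2, was at -0.72 ± 0.49, or 1.65-fold lower, and SRI, sorcin, at 0.37 ± 0.03 (SD, 2 probe sets each). SCGN, secretagogin, was at -0.48 (1 probe set). CAPN2 was the 1 of these 30 genes past 2-fold, where 1.12% of all genes were in either direction. Each pattern here is 1 difference between 2 arrays, so no measure of likeness between genes across samples could be computed.

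**Figure D4:**
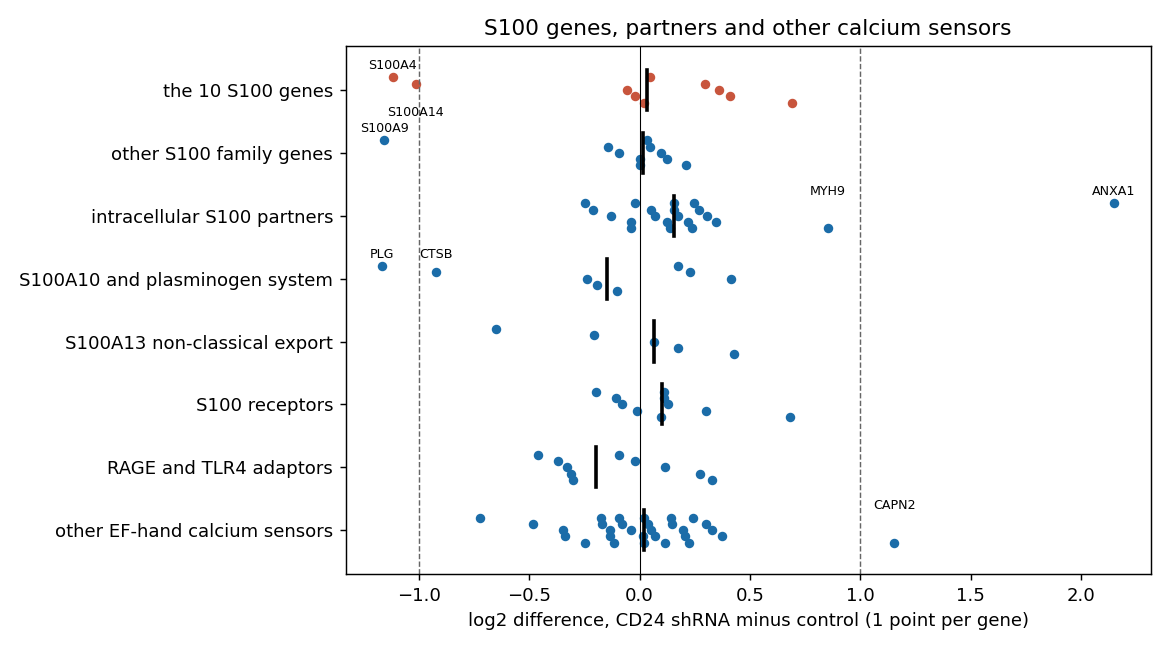
Log2 difference, CD24 shRNA minus control (horizontal axis), with 1 point per gene in each list, black bars at the medians and dashed lines at 2-fold. The 10 S100 genes run from -1.12 to 0.69, the partners from -0.25 to 2.15 with 15 of 21 above 0, and the other EF-hand sensors from -0.72 to 1.16 around a median of 0.02.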

How the data were processed

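Gene expression was measured in 2 cultures, 1 array each. Per the submitters' processing notes RMA was applied, and the authors deposited the result on a log2 scale; the software or the centring step is not given in the sources used here. Of the deposited numbers, the 2 log2 values of a probe set sum to 0 within 1e-06, so levels are absent. Of 54675 probe sets, 41091 named 1 gene in GEO's platform annotation (19775 genes) and were used; 1801 named several, 11721 none here, and 62 were controls. The value of a gene is its mean difference over probe sets, with the SD over probe sets, and a 2-fold difference counted as higher or lower. The SD pooled within genes was 0.27.

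Numbers of single precision have finer binary steps at lower levels, and a step too fine for a log2 level of 4 (called near the background) or of 8 places the dimmer array below it.

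The members and lists were chosen with earlier results of these data known. Named genes were the members, CD24 and up to 4 genes per list or neighbourhood (10 protein-coding genes on either side in RefSeq, GRCh38.p14) with the widest difference; for ANXA2, that list was S100A13 export. S100A1, S100A7 and S100A12 stood in the chromosome order only. Calculations used Python 3.11.15 with pandas 2.3.3 and numpy 2.4.6 and were tested on simulated data. Alternatives covered the combination and choice of probe sets, the scaling and the fold.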

Additional observations from a re-analysis of the deposited data

How the results depend on the processing

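The count of S100 genes at least 2-fold different, 2 of 10, was also 2 with the probe set of largest difference. It could not change with the median over probe sets (members have 1 or 2), without probe sets placed below 4 (no member has one), with probe sets that name a member and other genes (there were none) or centred on the median of all genes (0). The count was 1 of 9 when probe sets named _s_at or _x_at were left out, where S100A4 has no value, 1 of 10 scaled on the 18 hybridisation control probe sets, where S100A14 lay at -0.94, 3 at 1.5-fold with S100A10 added (5.01% of all genes), and 0 at 3-fold (0.248% of all genes). With the control scaling, the split of all genes moved from 125 higher and 96 lower to 165 and 78. With the probe set of largest difference per gene, 303 genes were higher and 209 lower. The median over the S100 genes ran from 0.04 to 0.11 in these settings. That shift is smaller than the pooled SD, which is a spread between single probe sets and not that of a median. Of 69 member values under another setting, 55 equal the main value by construction. Of the 14 others, those that moved by more than the SD over probe sets (the pooled SD for 1 probe set) were S100A6 at 0.38 and S100B at 0.10 with the control scaling. No value past 2-fold changed sign. No paired analysis was possible because each group has 1 array. How far signal stood above background limits these values, since levels are absent.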
